A study of Homo sapiens with 6 samples.

Results

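Long intergenic noncoding RNAs (lincRNAs) were described in NCI-H1975, an established human non-small cell lung cancer line, in libraries labelled with small interfering RNAs. The members were the rows of the deposited gene table whose Ensembl identifier has the type lincRNA in GENCODE release 29 and whose mean over the 6 libraries was at least 2 FPKM, a unit that divides a gene's fragments by its length in kilobases and by the library's counted fragments. Well-studied RNAs were left out by name, namely MALAT1, NEAT1, TUG1, NORAD, OIP5-AS1, KCNQ1OT1, MIR210HG, GAS5, ZFAS1 and all names beginning with SNHG. This gave 150 members of 60960 features. The table holds 7507 lincRNA features, of which 4013 were above 0 in any library and 158 reached a mean of 2 FPKM. Of these 158, 8 were left out by name (MALAT1, NEAT1, NORAD, MIR210HG, SNHG4, SNHG8, SNHG15 and SNHG19). The members were thus chosen by their mean FPKM, and their levels are given as a description. That mean was taken over both groups together and did not use the difference between them.

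The libraries carry 2 treatment labels, siNC (n = 3), taken here as the control small interfering RNA, and siGFPT2 (n = 3), a small interfering RNA directed at GFPT2. GFPT2 is an enzyme at the entry of the hexosamine pathway, which makes the sugar donor for protein glycosylation. All 6 are of 1 cell line, and the libraries hold RNA caught on oligo(dT) beads, so lincRNAs without a poly(A) tail are not caught. The protocol for RNA extraction mentions almonertinib, EGF and a knockdown of EGFR, but the treatment labels mention none of these. Whether the replicates were separate cultures is not said, and a p-value here reads only the differences among these 6 libraries, which can be technical.

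LincRNAs are made by RNA polymerase II, capped, often spliced and often polyadenylated, and they carry no long open reading frame. Most are kept at low levels because transcription is weak or because the nuclear exosome removes the transcript soon after it is made. A few act on chromatin, on messenger RNAs or on proteins, some are primary transcripts of microRNAs, and many start back to back with a protein-coding gene and share its promoter. Their levels are known to be more restricted to cell type than those of coding genes.

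The libraries held 21899321 to 27234880 counted fragments. GFPT2 itself stood at 9.24 ± 0.93 FPKM (SD, n = 3) in the libraries labelled siNC and 8.41 ± 0.73 (n = 3) in those labelled siGFPT2, a log2 difference of -0.13 (95% interval -0.43 to 0.17, limma adjusted p = 0.9999). The targeted transcript therefore does not separate the labels, and each comparison below is one of libraries by label. Markers of carcinoma epithelium were all present, with summed levels of 1667 to 2351 FPKM in siNC and 1719 to 2140 in siGFPT2 over 8 of 8 genes. The 5 endothelial markers summed to at most 1.00 FPKM in any library, and 6 fibroblast markers to 8.44 to 12.7. The siGFPT2 replicate 1 library was the highest in the fibroblast gene COL3A1 (0.879 FPKM against at most 0.020 in the other 5). It was also the highest in the fibroblast genes DCN (0.102 against at most 0.045), COL1A1 (8.23) and COL1A2 (3.04), and in the leukocyte gene LYZ (0.204 against at most 0.026). The fibroblast genes LUM (0.388) and PDGFRA (0.132) were highest in siGFPT2 replicate 3. The leukocyte genes PTPRC, CD3E, CD79A, CD14 and ITGAM were each highest in another library. The part of these genes in the results was not tested. The 6 leukocyte markers summed to 39.9 to 45.7 FPKM, of which CD79A made 40.3 on average, while PTPRC and CD3E, which define leukocytes and T cells, stood at 0.0067 and 0.0054. The siNC replicate 3 and siGFPT2 replicate 2 libraries stood apart from the other 4 across all genes, and their deviations from their group means correlated across genes at r = 0.79 (12896 features).

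Together the members took 0.240% to 0.263% of the counted fragments of a library. Levels were steeply ordered, from 132 FPKM down to the limit of 2, with a median of 3.84. There were 99 members between 2 and 5 FPKM, 31 between 5 and 10, and 20 at 10 or more. The first pair, LINC02474 and UCA1, made 19.3% to 23.8% of the summed member FPKM in each library, and the first 10 made 40.9% to 46.7%. Most members rested on few reads, with a median of 128 fragments per library, and 32 members had under 50 on average. The length behind a value was short beside that of coding genes. Its median was 1313 bases, against 5079 for the 9116 protein-coding features at the same minimum level. This length merges the exons of all annotated transcripts of a gene, or was searched, and is not a transcript length. Of the members, 34 have 1 exon, 57 have 2 and 59 have 3 or more.

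LINC02474 was the most abundant member (ENSG00000228437, chr1:221966341-221984964, plus strand of GRCh38 in GENCODE 29, 3 exons). It stood at 132, 142 and 116 FPKM with siNC and at 139, 110.0 and 151 with siGFPT2, in the order of the replicates. Its nearest coding gene by start, the phosphatase gene DUSP10, lay 224165 bases away at 12.4 FPKM on average. UCA1 (urothelial cancer associated 1, chr19:15828206-15836326, plus strand), an RNA first studied in bladder carcinoma, followed at 114, 116 and 119 FPKM with siNC and at 123, 115 and 131 with siGFPT2. The ranges of the pair overlap, so their order is not separated by the spread between libraries. UCA1 was the best measured member, with 10507 to 12964 fragments per library, 18.9% to 20.6% of all fragments on the members. Its exons overlap those of LINC01764, and how reads were shared between them is not stated. Its nearest coding gene, the olfactory receptor gene OR10H1, was nearly silent at 0.48 FPKM.

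Levels then fell to a group of 5 members between 33.6 and 44.4 FPKM on average. FP236383.3 stood at 50.8, 14.0 and 26.4 FPKM with siNC and at 71.8, 51.6 and 51.6 with siGFPT2, and is taken up with the comparison of the groups. AC008736.1, now called NUDT19-DT, was at 45.1 ± 10.4 FPKM with siNC and at 42.3 ± 5.28 with siGFPT2 (SD, n = 3 each). AL161431.1, now LINC03061, was at 38.7 ± 7.07 and 39.6 ± 0.64. Both of the last named were highest in siNC replicate 3. AC120498.4 was at 36.9 ± 3.71 and 38.4 ± 4.64 FPKM, and AL683807.1, now LINC02968, at 33.5 ± 2.21 and 33.6 ± 4.83. Neighbours in this order overlapped in range, so their order is not separated by the spread. The next 3 were AL035661.1 (now LINC02967; 21.4 ± 4.84 and 22.4 ± 2.01), AC074135.1 (19.98 ± 11.9 and 20.3 ± 8.93) and LINC00973 (15.3 ± 0.77 and 16.7 ± 0.85), the last of which closed the first 10.

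**Figure D1:**
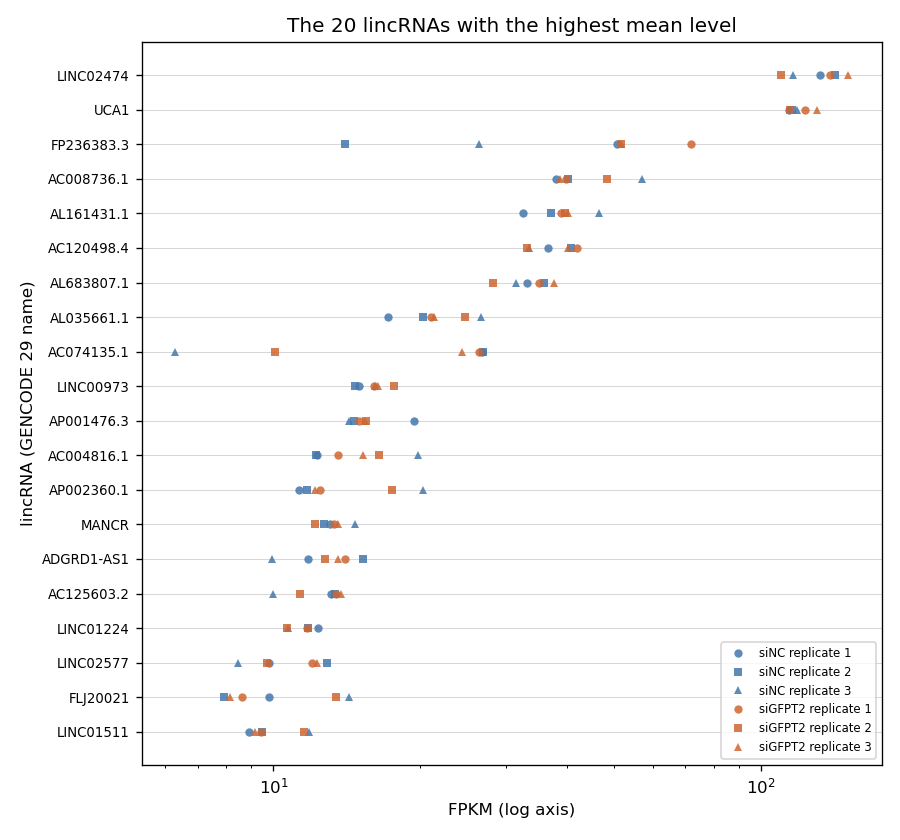
FPKM (log axis) of the 20 members with the highest mean, one row each, with blue points for siNC, orange points for siGFPT2 and the marker shape for the replicate. LINC02474 and UCA1 stand above 100 FPKM in all 6 libraries, while FP236383.3 and AC074135.1 are the rows whose points lie farthest apart.

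At the lower limit the choice of members was arbitrary. Just inside it were PICART1 (a mean of 2.02 FPKM), AC245041.1 (2.02) and AC008014.1 (2.01). Just outside it were AC026471.4 (1.98), AC068870.2 (1.97) and ZNF674-AS1 (1.95). PICART1 ranged from 1.24 to 2.83 FPKM and ZNF674-AS1 from 1.83 to 2.08 over the 6 libraries, so single libraries would have placed them differently.

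Several members carry names that are known from work on carcinoma. Of 18 names listed for growth and invasion, 4 were members (UCA1, LINC00973, LINC00857 and PVT1), and of 6 names listed as linked to p53, 1 was (LINC00467). None of 11 names listed for chromatin and RNA processing was a member. Among these, LINC00657 is NORAD, which was left out by name. Some RNAs are listed under more than 1 name (CYTOR with LINC00152, LINC01578 with CHASERR). Names were matched to the members only, so absence from them does not state a low level. LINC00973 (chr3:98981058-98983096, plus strand, 2 exons) stood at 14.99, 14.7 and 16.1 FPKM with siNC and at 16.1, 17.7 and 16.4 with siGFPT2. The groups overlapped by 1 library, with a log2 difference of 0.13 (95% interval -0.11 to 0.37). LINC00857 (chr10:80207710-80219657, plus strand), which has been studied in lung adenocarcinoma, was nearly level, at 8.83, 8.68 and 9.19 FPKM with siNC and at 8.74, 9.47 and 8.60 with siGFPT2. PVT1 was at 2.42 ± 0.31 FPKM with siNC and at 2.54 ± 0.17 with siGFPT2, and LINC00467 at 5.34 ± 1.48 and 5.62 ± 0.88 (SD, n = 3 each). The 95% intervals of all 5 differences include 0.

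The members include 4 host transcripts of microRNAs, the RNAs from which the microRNA hairpins are cut. MIR222HG carries miR-221 and miR-222, which are known to hold down the cell cycle inhibitor CDKN1B. MIR22HG carries miR-22. MIR200CHG carries miR-200c and miR-141, which keep epithelial cells from the mesenchymal state by holding down ZEB1 and ZEB2. MIR503HG lies over miR-503. The mature microRNAs are not measured in these libraries, since they have no poly(A) tail, so the values below are those of the host transcripts only. Their sequences are shown because the seed, bases 2 to 8, decides which messages a microRNA pairs with, and they tell which hosts can feed the same targets. They are from RefSeq (GRCh38.p14), written 5′ to 3′ with the seed in capitals.

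hsa-miR-221-3p: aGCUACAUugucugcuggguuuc
hsa-miR-222-3p: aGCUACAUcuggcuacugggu
hsa-miR-22-3p: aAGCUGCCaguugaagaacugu
hsa-miR-200c-3p: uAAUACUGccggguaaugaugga
hsa-miR-141-3p: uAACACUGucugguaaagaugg
hsa-miR-503-5p: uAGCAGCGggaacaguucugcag

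miR-221-3p (chrX:45746180-45746202, minus strand) and miR-222-3p (chrX:45747036-45747056, minus strand) share the seed GCUACAU, and both lie within MIR222HG (chrX:45745211-45770274). The other 4 seeds shown are each found once among the 10 mature microRNAs matched to the hosts. The seeds of miR-200c-3p (chr12:6963742-6963764, plus strand) and miR-141-3p (chr12:6964155-6964176, plus strand) are AAUACUG and AACACUG, both within MIR200CHG (chr12:6963246-6964447).

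Among the hosts MIR222HG was the highest, at 7.05, 8.15 and 7.71 FPKM with siNC and at 7.67, 8.70 and 6.60 with siGFPT2. Its groups overlapped fully, with a log2 difference of -0.0026 (95% interval -0.33 to 0.32). MIR22HG (chr17:1711493-1717174, minus strand) stood at 4.42, 4.82 and 4.69 FPKM with siNC and at 5.17, 5.28 and 5.49 with siGFPT2. All 3 siGFPT2 values were above all 3 siNC values, a log2 difference of 0.19 (95% interval -0.06 to 0.44, limma adjusted p = 0.9999). MIR200CHG stood at 4.26, 4.44 and 5.48 FPKM with siNC and at 2.89, 5.56 and 3.99 with siGFPT2. It rested on only 23 to 53 fragments per library, and its interval of -0.80 to 0.35 on the log2 scale spans no change. MIR503HG (chrX:134543337-134546632, minus strand) stood at 2.44, 2.39 and 3.37 FPKM with siNC and at 2.24, 2.69 and 2.55 with siGFPT2, a log2 difference of -0.11 (95% interval -0.53 to 0.30). Part of the MIR22HG and MIR503HG exons is also annotated as the hairpin genes MIR22 and MIR424, and how the authors' counting split such reads is not stated.

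**Figure D2:**
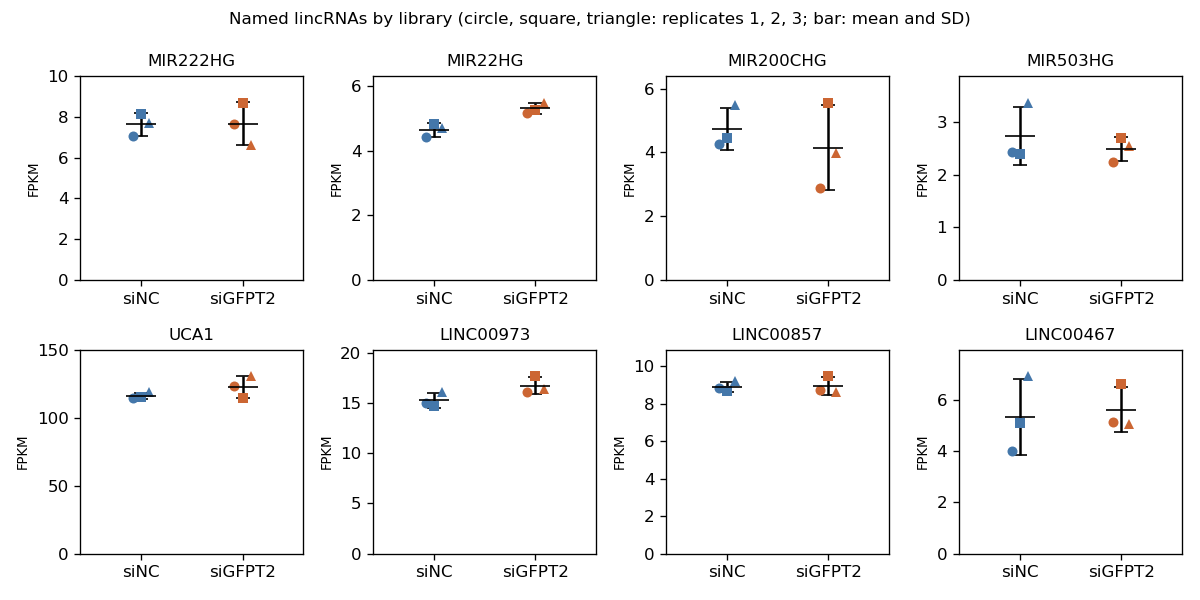
FPKM by library for the 4 microRNA host transcripts (upper row) and for 4 RNAs of the carcinoma and p53 lists (lower row), with the mean as a bar, the SD as whiskers and the replicates as circle, square and triangle. MIR22HG is the panel in which the groups do not overlap, with siNC at 4.42 to 4.82 and siGFPT2 at 5.17 to 5.49.

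The members were split into 2 kinds by their position relative to coding genes. For 29 members the start lay within 1000 bases of the start of a coding gene on the other strand, pointing away from it (head to head), and all 29 partners stood at 1 FPKM or more. The other 121 lay at a median of 42179 bases from the nearest coding start. Of these, 8 lay within 1000 bases without being head to head, and 52 lay more than 50 kb away. The 150 members have 142 distinct nearest coding genes, of which 111 stood at 1 FPKM or more. Head-to-head members had a median of 4.82 FPKM beside 7.39 for their partners, and 18 of the 29 were below their partner. Chromosome 19 held the largest number of members, 16 of 150 (10.7%), against 8.10% of the coding features at the same minimum level. The gap to the coding share was wider on some other chromosomes, such as 21 (4.0% against 0.768%) and 12 (8.67% against 5.30%). Some went the other way, such as chromosome 1 (7.33% against 9.92%). Coding features are not the set from which the members were drawn. Of the 227 lincRNA features on chromosome 19, 16 were members. These numbers were 6 of 189 on chromosome 21, 13 of 424 on 12 and 11 of 624 on 1.

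Promoters are shown for 3 head-to-head members whose levels moved together over the libraries and for LINC00973, whose nearest coding start lies 79369 bases away. They are from RefSeq (GRCh38.p14), from 250 bases before to 50 bases after the transcript's start and written 5′ to 3′ on its own strand. Capitals mark every match, on both strands, of CCAAT (bound by NF-Y), GGGCGG (the GC box), TATAAA (the TATA box) and TGANTCA (the AP-1 element). No match overlaps another in these 4 sequences.

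AP002360.1, now EMSY-DT (chr11:76444631-76444930, minus strand): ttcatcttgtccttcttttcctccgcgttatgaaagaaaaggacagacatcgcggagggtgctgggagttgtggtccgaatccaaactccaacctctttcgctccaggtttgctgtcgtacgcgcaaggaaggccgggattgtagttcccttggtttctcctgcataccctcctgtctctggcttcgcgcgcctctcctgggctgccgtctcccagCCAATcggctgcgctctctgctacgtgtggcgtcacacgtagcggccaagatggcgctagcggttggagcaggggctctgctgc
CH17-340M24.3, now ATP6AP1-DT (chrX:154428430-154428729, minus strand): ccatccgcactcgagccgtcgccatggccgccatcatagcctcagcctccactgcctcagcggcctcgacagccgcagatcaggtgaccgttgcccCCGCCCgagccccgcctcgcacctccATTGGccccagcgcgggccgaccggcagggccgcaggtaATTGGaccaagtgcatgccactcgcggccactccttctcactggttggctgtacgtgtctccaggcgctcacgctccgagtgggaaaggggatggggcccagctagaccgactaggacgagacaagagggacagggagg
NUP50-DT (chr22:45163732-45164031, minus strand): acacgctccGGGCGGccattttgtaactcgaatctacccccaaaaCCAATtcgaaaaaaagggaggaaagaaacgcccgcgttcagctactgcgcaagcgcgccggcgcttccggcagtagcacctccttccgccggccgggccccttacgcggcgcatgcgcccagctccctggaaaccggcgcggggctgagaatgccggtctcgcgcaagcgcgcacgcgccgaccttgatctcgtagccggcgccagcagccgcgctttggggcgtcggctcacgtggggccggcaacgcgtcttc
LINC00973 (chr3:98980805-98981104, plus strand): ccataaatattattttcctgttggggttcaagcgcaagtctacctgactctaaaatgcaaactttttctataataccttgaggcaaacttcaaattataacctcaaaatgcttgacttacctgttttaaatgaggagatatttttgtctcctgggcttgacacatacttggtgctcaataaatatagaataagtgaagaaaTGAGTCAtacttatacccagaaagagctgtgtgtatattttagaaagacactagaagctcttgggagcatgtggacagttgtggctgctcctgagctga

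The 3 head-to-head promoters hold 1, 2 and 1 matches of the NF-Y motif and have GC shares of 58.7%, 67.7% and 67.0%. The LINC00973 promoter holds neither the NF-Y motif nor the GC box, has a GC share of 37.3%, and holds 1 AP-1 element before the start. RefSeq gave a promoter for 59 of the 150 members. The NF-Y motif was found in 54.2% of them against 34.6% of the 35116 promoters of the table, and the GC box in 64.4% against 45.0%. The median GC share was 67.0% for the member promoters and 58.7% for the table. Among the members it was 69.8% for the 20 head to head and 64.7% for the 39 others. Those 39 ranged from 36.7% to 74.7%, so the LINC00973 promoter is near their lower end and not typical of them. The table was not limited to genes expressed here, while the members were chosen by level. The part of GC share or expression in these differences was not tested. The GC box was in 17 of the 20 head-to-head members with a promoter and in 21 of the 39 others, and the NF-Y motif in 11 of 20 and 21 of 39. Of the 3 head-to-head promoters shown, that of AP002360.1 holds no GC box. The TATA box was found in 3.39% of the member promoters against 11.5%, and the AP-1 element in 11.9% against 7.71%. A match is a description of letters and says nothing of what is bound there.

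AP002360.1 stood at 11.3, 11.7 and 20.3 FPKM with siNC and at 12.5, 17.5 and 12.2 with siGFPT2. CH17-340M24.3 stood at 3.02, 3.59 and 8.40 FPKM with siNC and at 4.12, 7.25 and 4.97 with siGFPT2. NUP50-DT stood at 6.56, 5.57 and 8.14 FPKM with siNC and at 6.19, 7.68 and 6.497 with siGFPT2. In all 3 the siNC replicate 3 and siGFPT2 replicate 2 libraries were the highest, one in each group, so the groups overlap. The partners of these 3 did not follow. EMSY stood at 3.31, 3.53 and 1.55 FPKM with siNC and at 3.31, 1.98 and 3.51 with siGFPT2, lowest in the same pair of libraries. NUP50, a nuclear pore component, stood at 13.4, 14.8 and 9.86 with siNC and at 14.95, 11.3 and 15.6 with siGFPT2, again lowest in that pair. ATP6AP1, an accessory subunit of the vacuolar proton pump, stood at 53.7, 46.5 and 47.5 with siNC and at 48.8, 47.3 and 47.0 with siGFPT2 and showed no such order. Partners of other head-to-head members differed among themselves. CD2BP2 was highest in that pair, at 23.2, 22.1 and 29.5 FPKM with siNC and at 23.2, 27.6 and 23.1 with siGFPT2. TRIM25 was lowest in it, at 18.3, 18.4 and 9.33 with siNC and at 16.5, 11.2 and 16.5 with siGFPT2. These orders were not counted over the 29 partners. None of the 29 partners had an unadjusted limma p under 0.05 between the groups.

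That pattern was common among head-to-head members. The siNC replicate 3 and siGFPT2 replicate 2 libraries were the 2 highest of 6 in 19 of 29 head-to-head members (65.5%) and the 2 lowest in 5 (17.2%). For the 121 other members they were the 2 highest in 43 (35.5%) and the 2 lowest in 33 (27.3%). Over all 150 members the counts were 62 (41.3%) and 38 (25.3%), against 32.5% and 37.8% of the coding features. AC004816.1, now MAP3K9-DT, is an example at 12.3, 12.3 and 19.8 FPKM with siNC and at 13.6, 16.5 and 15.3 with siGFPT2. The reverse order was seen in PICART1, at 2.20, 2.83 and 1.24 FPKM with siNC and at 2.31, 1.38 and 2.19 with siGFPT2. It was also seen in FAM160A1-DT, which like AC004816.1 was named after its values were seen, at 2.65, 2.93 and 1.71 FPKM with siNC and at 2.34, 1.64 and 2.89 with siGFPT2. These shares describe 6 libraries and carry no test.

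**Figure D3:**
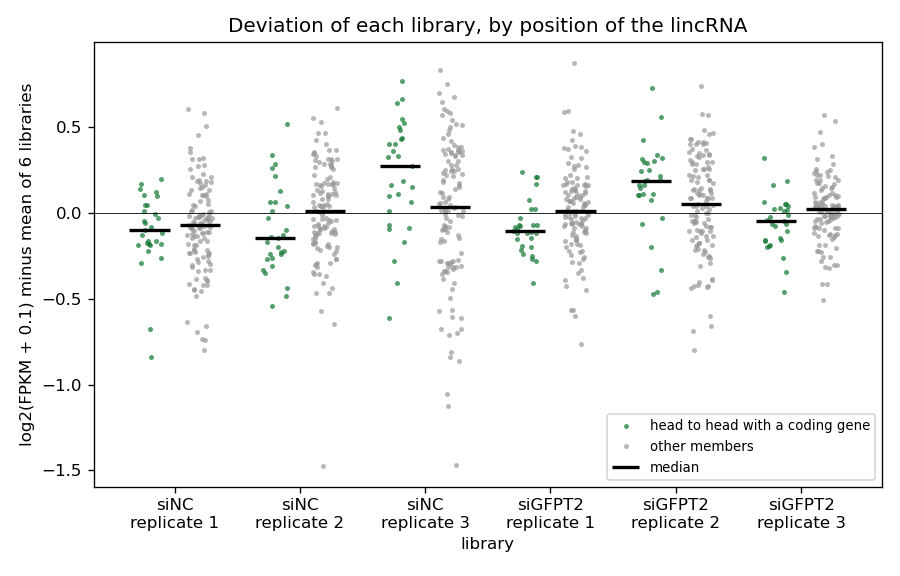
Deviation of each library from the mean of the 6 on the log2(FPKM + 0.1) scale, one point per member, with head-to-head members in green, the other members in grey and the medians as black bars. The green medians stand at 0.27 in siNC replicate 3 and 0.19 in siGFPT2 replicate 2 and below 0 in the other 4 libraries.

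Over all members the median deviation of siNC replicate 3 was 0.08 and that of siGFPT2 replicate 2 was 0.10 on the log2 scale, while over all features they were -0.04 and -0.01. The siNC replicate 3 library was the highest or the lowest of the 6 in 90 of 150 members (60.0%), and in 73.6% of coding features. Across coding features the deviation of these libraries went with length, with a Spearman's rho across genes of -0.61 for siNC replicate 3 and -0.62 for siGFPT2 replicate 2 (n = 9116 genes). Across the 150 members the same values were -0.10 and -0.17. Lengths enter the FPKM itself, and the genes share 1 library each time, so these values are descriptions. Whether length, or anything that goes with it, has a part in the members' pattern was not tested.

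The spread over libraries was larger among the members than among coding genes. The coefficient of variation (CV) of FPKM over the 6 libraries had a median of 17.4% for the members and 13.2% for the coding features at 2 FPKM or more. The spread expected from counting fragments alone had medians of 8.84% and 3.11%. Within the groups the SD on the log2(FPKM + 0.1) scale had medians of 0.25 and 0.20. At like FPKM the median CVs were 17.6% against 14.7% between 2 and 5 FPKM and 19.3% against 13.1% between 5 and 10. The gap nearly closed at 10 FPKM or more (12.5% against 12.2%). Like FPKM did not mean like numbers of fragments. The median CVs from counting were 10.8% against 4.67% between 2 and 5 FPKM. They were 6.498% against 3.33% between 5 and 10, and 4.08% against 2.07% at 10 or more. The part of counting in the gap within each band was not tested. Of the members, 75 had a CV more than 2 times that from counting, and 16 had one below it. The ratio of the CV to that from counting had a median of 2.00 for the members. It was 4.10 for the coding features, with a lower quartile of 2.50, and 3.22 for all features tested. This ratio also depends on the number of fragments, which had medians of 128 for the members and 1034 for the coding features. It therefore does not say which set spread more beyond counting. In 33 members the highest library was more than 2 times the lowest. The median of highest over lowest was 1.56 for the members and 1.41 for the coding features.

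The steadiest members were LINC01285 (CV 2.95%), LINC00857 (3.81%) and AL365181.2, now BCAN-AS1 (4.39%). LINC01285 (chrX:118839554-118919669, plus strand, 11 exons in its longest model) stood at 2.73, 2.90 and 2.77 FPKM with siNC and at 2.79, 2.92 and 2.92 with siGFPT2. These 3 varied by less than the counting error of 4.36% to 6.24% estimated for them. UCA1 had a CV of 5.33%, but unlike these 3 it varied by more than its counting error of 0.93%, the lowest among the members.

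The most variable were FP236383.3 (CV 46.7%), AC074135.1 (46.6%), AP001505.1 (44.5%), CH17-340M24.3 (41.0%) and AC040977.1 (40.8%). AC074135.1 (chr19:23075201-23100361, plus strand) stood at 26.8, 26.9 and 6.29 FPKM with siNC and at 26.4, 10.1 and 24.4 with siGFPT2. It rested on 149 to 581 fragments, so counting error of 4.75% is small beside these differences. The low values are in siNC replicate 3 and siGFPT2 replicate 2, and the other 4 libraries lie within 24.4 to 26.9. Its start lies 9 bases from that of the zinc finger gene ZNF730 and their exons overlap, so reads of the 2 genes may not be told apart. ZNF730 was also lowest in that pair of libraries, at 2.76, 3.83 and 2.12 FPKM with siNC and at 3.28, 2.00 and 3.35 with siGFPT2. AP001505.1 had the opposite order, at 1.12, 1.75 and 3.69 FPKM with siNC and at 1.89, 3.07 and 1.63 with siGFPT2, and AC040977.1 likewise, at 4.88, 3.73 and 8.57 and 4.75, 9.10 and 3.94. Of these 5, 4 thus had their extreme values in the same pair of libraries, and FP236383.3 did not.

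**Figure D4:**
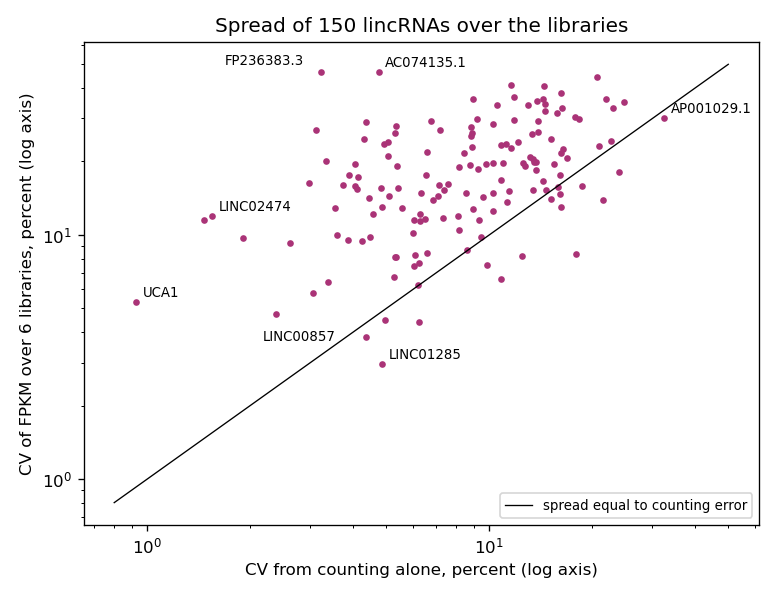
CV of FPKM over the 6 libraries against the CV from counting fragments alone, in percent on log axes, one point per member, with the line where they are equal. Most points lie above the line, FP236383.3 and AC074135.1 farthest up at 46.7% and 46.6%, and LINC01285 and LINC00857 lie below it.

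Between siGFPT2 and siNC the members did not separate. In the limma fit over the 12896 features that averaged 1 FPKM or more, 0 of 150 members passed an adjusted p of 0.05, and the same held for all features (0.0%). All members entered the test by the rule that chose them. At an unadjusted p under 0.05 there was 1 member (0.667%), against 0.651% of all features, a share near the background. A limma-voom fit on the fragments recovered from the FPKM steps also called 0 members, with 1 under an unadjusted p of 0.05. In bulk RNA, fewer cells with a transcript and less of it per cell cannot be told apart.

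The median log2 difference of the members was 0.027, beside 0.033 for all features. It was above 0 in 90 of 150 members (60.0%) and in 61.4% of all features. This split depends on scaling: it was 65 of 150 when libraries were centred on their median feature and 69 of 150 after quantile normalization. A 2-fold change, up or down, lay outside the 95% interval of 134 of 150 members (89.3%), against 92.8% of all features and 95.3% of those at 2 FPKM or more. A 1.5-fold change lay outside it for 84 (56.0%) against 61.1%. The intervals of the other 16 members, FP236383.3 among them, reach a 2-fold change. Their median was 50.1 fragments per library.

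**Figure D5:**
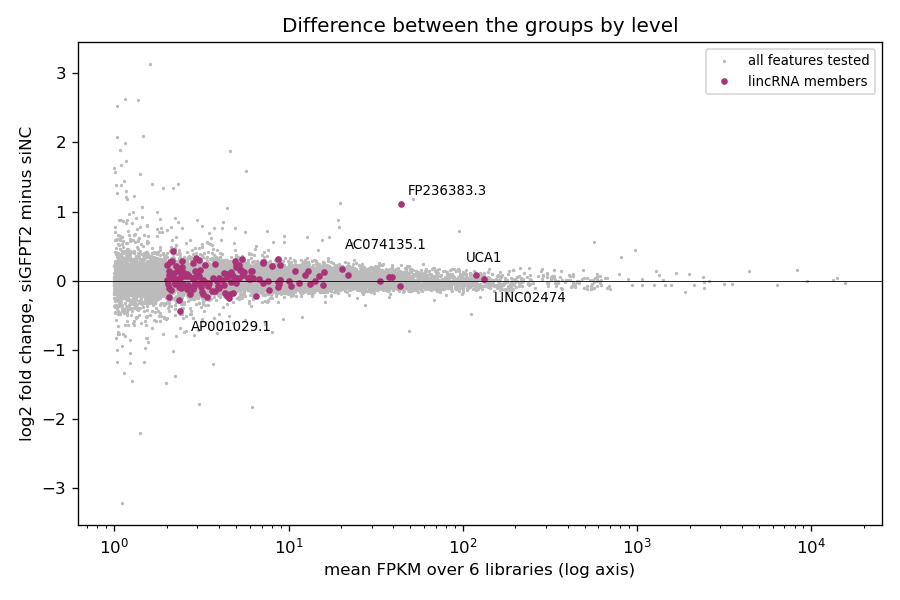
Log2 difference of siGFPT2 minus siNC against the mean FPKM (log axis), with the 12896 features tested in grey and the 150 members in purple. The members lie within -0.43 and 0.43 except FP236383.3 at 1.11.

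The groups did not overlap in 3 members (2.0%), against 3.53% of all features. All 3 were higher in siGFPT2 (2.16% of all features were), and none was lower (1.36%). They were FP236383.3, MIR22HG and LINC00605. LINC00605 (chr14:103187221-103189028, minus strand) stood at 2.03, 1.85 and 1.91 FPKM with siNC and at 2.12, 2.57 and 2.46 with siGFPT2, a log2 difference of 0.29 (95% interval -0.04 to 0.61, limma adjusted p = 0.9999). It rested on 63 to 109 fragments per library.

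FP236383.3 (ENSG00000281181, chr21:8437629-8438551, minus strand, 1 exon of 923 bases) had the largest difference. Its siNC values of 50.8, 14.0 and 26.4 FPKM lay below its siGFPT2 values of 71.8, 51.6 and 51.6, with 50.8 and 51.6 nearly touching. The log2 difference was 1.11 (95% interval 0.07 to 2.16, limma adjusted p = 0.9999), and this was the member with an unadjusted p under 0.05. Without siNC replicate 2, the lowest library, it was 0.65 (-0.12 to 1.42), and without siNC replicate 1 it was 1.58 (0.78 to 2.38). With siNC replicate 3 or any siGFPT2 library left out it was 0.95 to 1.19, with intervals that include 0. The gene lies 1271 bases before RNA5-8SN2, a ribosomal RNA gene of the nucleolar repeats on chromosome 21. Annotated copies of the same length in that region, FP236383.2, FP671120.3 and FP671120.4, were listed at 0 to 0.488 FPKM. Reads of repeated ribosomal DNA, those of ribosomal RNA included, could fall to this row or to any copy. The level of this row, and its rank as a lincRNA, are therefore uncertain, and the source of its reads was not tested.

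Next in order of p among those higher in siGFPT2 were LINC00524, with a log2 difference of 0.33 (95% interval -0.10 to 0.76), and AC125603.1, with 0.28 (-0.16 to 0.72). LINC00524 stood at 2.68, 2.16 and 2.96 FPKM with siNC and at 3.30, 3.86 and 2.73 with siGFPT2. AC125603.1 stood at 4.57, 4.87 and 3.79 and at 6.37, 4.21 and 5.66, on 34 to 53 fragments. In both the groups overlap by 1 library. Of those lower in siGFPT2, the first 5 in order of p were AC106782.2, now CD2BP2-DT (log2 difference -0.17), AP001029.1 (-0.43), BX537318.1 (-0.27), LINC02166 (-0.23) and AP006621.3, now GATD1-DT (-0.22), and all 5 intervals include 0. AP001029.1 had the largest of these differences and the fewest fragments, 5 to 14 per library, at 2.96, 2.99 and 2.19 FPKM with siNC and at 1.31, 3.06 and 1.88 with siGFPT2. Its spread, a CV of 30.1%, was below the 32.4% from counting alone. In all 5 the groups overlapped.

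The number of small p-values rested on 1 library. Without siNC replicate 3, 11 of 150 members had an unadjusted limma p under 0.05 (10 higher, 1 lower), against 4.03% of all features. Of the members, 0 passed the adjusted threshold. Without both siNC replicate 3 and siGFPT2 replicate 2 there were 14 of 150 (10 higher, 4 lower), against 5.82% of all features. Again 0 were past the adjusted threshold, and 10 members were in both counts. The smallest p in both was that of AC025575.2, named here after its values were seen, at 5.52, 4.36 and 10.3 FPKM with siNC and at 7.95, 7.41 and 7.34 with siGFPT2. HIF1A-AS2, an antisense RNA of the hypoxia factor gene also named after its values were seen, stood at 2.10, 2.29 and 4.12 with siNC and at 3.11, 2.64 and 3.26 with siGFPT2. In both the siNC replicate 3 value was above all siGFPT2 values and the other siNC values were below them.

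Some members share a locus. Within 10000 bases of each other lay 8 pairs of members, and in 2 pairs (AP006621.2 with AP006621.3, and AC078923.1 with AC078820.1) the gene bodies overlap on the same strand. AC125603.1 and AC125603.2 lie 270 bases apart on the same strand, at 4.91 and 12.5 FPKM on average. AL683807.1 and AL683807.2 lie 4134 bases apart at 33.6 and 4.72 FPKM. Such pairs are not independent measurements. The exons of 30 members overlap those of another annotated gene. With strand not stated, antisense reads cannot be told apart from those of the member.

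Genes that handle lincRNAs after transcription were read from the same fit. Of 19 genes listed for the nuclear exosome and its adaptors, which trim and destroy nuclear RNA, 0 passed the test in either direction. Their median log2 difference was 0.09, with 17 above 0 against 61.4% of all features. This count was 12 of 19 when libraries were centred on their median feature and 14 of 19 after quantile normalization. The list as written also holds MTR, which is the methionine synthase gene and not an exosome gene. The smallest p-values were those of C1D, an exosome cofactor, at 1.68 ± 0.57 FPKM with siNC and at 2.15 ± 0.05 with siGFPT2 (log2 difference 0.39, 95% interval -0.18 to 0.97), and MTREX, the exosome helicase, at 6.64 ± 0.95 and 7.65 ± 0.83 (0.21, -0.15 to 0.56). SD is over n = 3 in each group. Of 10 genes of nonsense-mediated decay, which removes messages with early stop codons, 0 passed and 7 were above 0 (4 with centring, 5 after quantile normalization), with a median of 0.03. SMG9 stood at 6.503 ± 0.49 and 5.86 ± 0.39 FPKM (-0.15, 95% interval -0.42 to 0.13), and the RNA helicase cofactor UPF2 at 6.18 ± 0.88 and 6.97 ± 1.19 (0.17, -0.24 to 0.57). Of 13 genes of RNA export from the nucleus, 0 passed and 7 were above 0 (5 with centring, 7 after quantile normalization), with a median of 0.05. THOC1 and THOC3, subunits of the complex that loads export factors, had log2 differences of 0.27 (95% interval -0.33 to 0.87) and 0.14 (-0.22 to 0.50). No gene of the 3 lists had an unadjusted p under 0.05.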

How the data were processed

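The values are FPKM as deposited by the authors, 1 column per library in 1 table. The tools named in the submitters' processing notes are featureCounts, HISAT2 and DESeq2, without versions. Genome build and gene annotation: not given in the sources used here. Gene types, positions and lengths came from GENCODE 29 (GRCh38), which held 58337 of the 60605 Ensembl identifiers. Fragment counts were recovered from the steps of the FPKM values. Of 36981 features above 0, 36980 gave whole numbers within 0.0001. For 99 members the GENCODE 29 exon length was used. For 51 the smallest length giving whole numbers was taken, which is partly built in and may be too short. Groups were compared with limma 3.58.1 (R 4.3.3) on log2(FPKM + 0.1), eBayes with a trend, two-sided, with Benjamini-Hochberg adjustment over all 12896 features at a mean of 1 FPKM or more. This scale understates changes of low genes. Intervals are 95%. The counting CV is 1 over the square root of the mean fragments. It covers counting error only.

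Members, gene lists and tests were chosen with earlier results of these data known. Named were the 10 highest members, the 5 most and 3 least variable, the 5 smallest p in each direction, 3 rows on each side of the limit, the role lists, and the 2 smallest p of each turnover list. Alternatives were pseudocounts, filters, scalings, a replicate block, limma-voom and left-out libraries.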

Additional observations from a re-analysis of the deposited data

How the results depend on the processing

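The 4 results over the whole table or the members were recomputed under 15 alternatives. The number of called features and of called members was 0 under all 15, with a lowest adjusted p of 0.720 for a named member. The median log2 difference of the members, 0.027, was -0.026 with libraries centred on their median feature, -0.012 after quantile normalization, and -0.00081 to 0.064 with 1 library left out. The number of members with an unadjusted p under 0.05, 1 as reported, was 0 with centring, 14 leaving out siNC replicate 3 and siGFPT2 replicate 2 together, and 0 to 11 with 1 library left out. The replicate number as a block gave 0 calls and 1 member under 0.05. The numbers do not pair the samples: deviations of same-numbered libraries correlated at 0.47, -0.72 and -0.57, and siNC replicate 3 correlated best with siGFPT2 replicate 2 (0.79). The cause of these changes was not tested.

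Of 495 values of the 33 named members, 442 kept their direction and 53 changed sign, and none passed the threshold in any fit. The direction did not change in 13 members. With centring the log2 difference was -0.024 for LINC02474, -0.0060 for AL161431.1, -0.048 for LINC00857, -0.011 for AC040977.1, -0.016 for LINC01285 and -0.038 for AC008014.1. After quantile normalization it was 0.0016 for AL683807.1, -0.021 for LINC00857, -0.0055 for AC040977.1, -0.012 for LINC01285 and -0.032 for AC008014.1. Leaving out siNC replicate 3 and siGFPT2 replicate 2 together gave 0.0073 for AC008736.1, 0.074 for AL683807.1, -0.078 for AC074135.1, -0.014 for LINC00857 and -0.019 for AC008014.1. With 1 library left out the ranges spanned 0 for 19 members: LINC02474 (-0.068 to 0.16), AC008736.1 (-0.19 to 0.11), AL161431.1 (-0.070 to 0.19), AC120498.4 (-0.016 to 0.16), AL683807.1 (-0.088 to 0.12), AL035661.1 (-0.060 to 0.26), AC074135.1 (-0.52 to 0.61), LINC00857 (-0.037 to 0.031), MIR222HG (-0.098 to 0.099), AC040977.1 (-0.31 to 0.37), LINC00467 (-0.089 to 0.30), CH17-340M24.3 (-0.053 to 0.67), MIR200CHG (-0.46 to 0.0040), AL365181.2 (-0.082 to 0.010), MIR503HG (-0.20 to 0.042), AP001505.1 (-0.26 to 0.56), PICART1 (-0.37 to 0.20), AC245041.1 (-0.15 to 0.61) and AC008014.1 (-0.068 to 0.075). Depth limits the members with few fragments most, and 1 library decides the sign of many.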
